A study of Sus scrofa with 11 samples.

Results

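Solute carriers are membrane proteins that move sugars, amino acids, nucleotides, metabolites and ions across the plasma membrane and the membranes of organelles. The probe sets described here are those whose single gene symbol in the array's annotation starts with SLC followed by a digit, with 1 such probe set left out by the rule. They numbered 246 probe sets of 228 genes, among 27558 probe sets in the table and 12217 genes with a single symbol. In 169 of the 246 probe sets (159 genes) the mean signal lay above the dimmest 25% of the array, a floor of 3.63 on the log2 scale, and these were tested. The other 77 probe sets were not. The tested genes comprised 28 of 32 mitochondrial carriers, 5 of 5 glucose carriers, 8 of 11 monocarboxylate carriers, 3 of 4 fatty acid carriers and 19 of 32 amino acid carriers. A further 3 genes, SLC4A1AP, SLC9A3R1 and SLC9A3R2, matched the naming rule but encode proteins that bind a carrier and are not carriers themselves.

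The heart burns fatty acids, lactate, glucose and amino acids, and each fuel crosses the plasma membrane through its own carriers: SLC2 for glucose, SLC16 for lactate and pyruvate, and SLC27 for fatty acids, beside CD36. The SLC25 carriers of the inner mitochondrial membrane exchange ADP for ATP, bring in phosphate and run the malate-aspartate shuttle, which carries the electrons of cytosolic NADH into mitochondria. Zinc carriers work in opposed directions. Most SLC30 proteins move zinc out of the cytosol into organelles or out of the cell, and SLC39 proteins move it in.

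The RNA came from the ischemic zone of the left ventricle of male Yorkshire pigs. All animals had an ameroid constrictor, a device that closes an artery slowly, placed on the left circumflex coronary artery, so no group was free of ischemia. The pigs ate a normal diet, labelled ND, or were kept on HFD, a diet high in fat, for 12 weeks. They received vehicle or extracellular vesicles (EV) injected into the muscle of the ischemic territory, and tissue was taken 5 weeks later. There were 3 arrays of ND with vehicle, 3 of ND+EV, 2 of HFD with vehicle and 3 of HFD+EV, each made from 50 ng of total RNA on a whole-transcript array. The samples of a group are called biological replicates, but no label ties an array to an animal, so the p-values measure only the spread between these samples.

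The arrays had the signal of heart muscle: over 8 cardiomyocyte markers the mean log2 signal was between 10.72 and 11.11 on every array. Within an array, the standard deviation of the log2 signal was 1.5931 and 1.6241 on HFD and 1.4472, 1.5138 and 1.4692 on ND. It ran from 1.4989 to 1.5442 on ND+EV and from 1.5075 to 1.5956 on HFD+EV. The median log2 signal was 4.36 and 4.38 on HFD and 4.43 to 4.48 on ND. What part this spread had in the HFD minus ND differences was not tested beyond quantile normalization and cyclic loess, given below. The arrays least like the rest were ND replicates 1 and 3. Their mean correlations with the other 10 arrays were 0.947 and 0.952, against 0.965 to 0.972 for the other 9. Values that rest on the ND group are therefore also given without them where that moves a difference by more than 1.5 times, and for the genes nearest the threshold. Without both, ND keeps 1 array, which is assumed to vary like the other groups, as is the lone HFD array where 1 of the pair is left out. Values below are log2 signals in the order of the replicate numbers. Differences are between group means on that scale with standard errors (SE) and p-values from limma, adjusted by Benjamini-Hochberg over all 20668 probe sets tested. In whole tissue, fewer cells of a type and less RNA per cell cannot be told apart.

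In HFD against ND, 1 solute carrier passed the test and rose, the zinc carrier SLC30A6. This was 0.592% of the 169 solute carrier probe sets tested, beside 152 of all 20668 probe sets (0.735%), so the share was near the background. Both counts depended on the other groups as well, since all 11 arrays share 1 estimate of the spread: the 152 became 0 without any 1 of the ND+EV arrays and 722 without HFD+EV replicate 1. At an unadjusted p under 0.05, 29 solute carrier probe sets were higher and 5 lower, 17.2% and 2.96%, where the background was 13.6% higher and 10.4% lower. Many probe sets of that background carry no gene symbol. With 1 probe set a gene, 28 of 159 solute carriers were higher (17.6%) and 5 lower (3.14%), against 16.6% and 7.41% of all 9738 genes. In this fit the share of higher genes was thus near the background, and that of lower genes was below it. With quantile normalization higher genes were 19.5% of the solute carriers and 12.3% of all genes, and with cyclic loess 19.5% and 12.5%. They were 15.7% and 12.3% with only the 2 groups compared, and 17% and 17.5% with a replicate block. Higher genes made up 84.8% of the solute carriers at that level and 69.1% of all genes. Across other ways of processing and with arrays left out these shares ran from 81.5% to 95.8% and from 65.2% to 80.4%. The median over the 159 genes was 0.01, with 82 higher and 77 lower, and the median over all 9738 genes tested was 0.04. Without both ND replicates 1 and 3 both medians were 0.03, with 89 of the solute carrier genes higher and 70 lower. No solute carrier passed in the other comparisons.

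**Figure D1:**
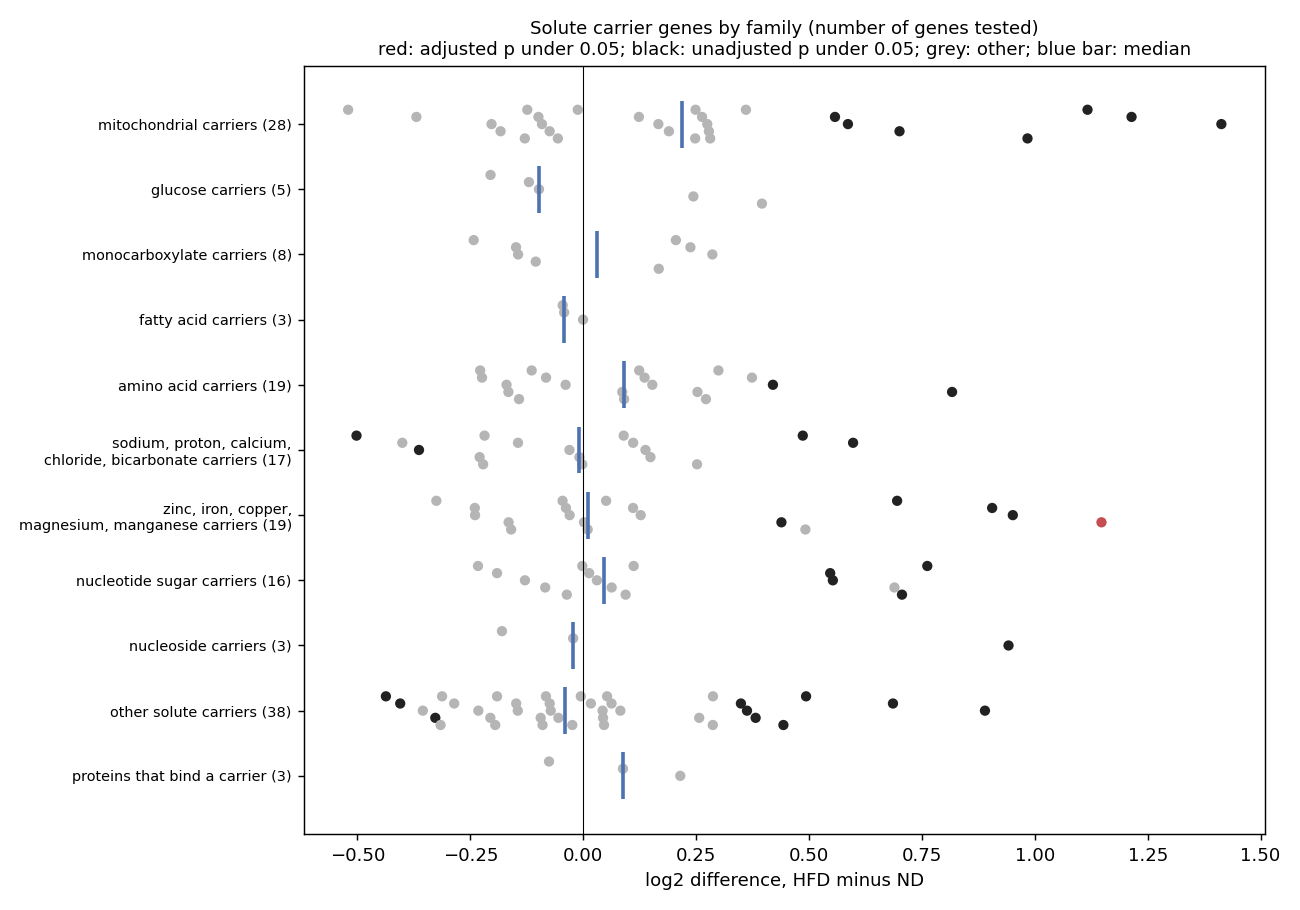
Each point is 1 of the 159 solute carrier genes tested, placed by its log2 difference HFD minus ND (horizontal axis) in its family (vertical axis), with the family median as a blue bar. The mitochondrial carriers reach furthest to the right, to 1.41, SLC30A6 is the 1 red point at 1.15, and the 3 fatty acid carriers lie between -0.05 and 0.00.

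The mitochondrial carriers held the 2 solute carrier genes with the highest HFD minus ND differences, SLC25A11 and SLC25A3. Of 28 genes, 17 were higher and 11 lower, with a median of 0.22. At an unadjusted p under 0.05, 7 of the 28 were higher and 0 lower, where all genes gave 16.6% and 7.41%, and none passed the adjusted threshold. On 11 genes both HFD arrays lay above all 3 ND arrays, and on 1 gene both lay below, where all genes gave 23.6% and 15.9% for the same counts. The median stayed above 0 under every alternative run, at its lowest 0.08 without HFD replicate 1, and it was 0.09 without both ND replicates 1 and 3.

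SLC25A11, the oxoglutarate carrier that exchanges oxoglutarate for malate in the malate-aspartate shuttle, read 7.48, 8.06 and 7.66 on the ND arrays and 9.01 and 9.29 on the HFD arrays. With vesicles it read 8.04, 8.02 and 7.82 on ND+EV and 7.78, 9.07 and 8.73 on HFD+EV. Both HFD arrays were above every array of ND and ND+EV, and HFD+EV replicate 1 was at the level of the ND arrays. The HFD minus ND difference was 1.41 ± 0.32 (SE) and did not pass (limma, adjusted p = 0.0612). Without both ND replicates 1 and 3 it was 1.09. SLC25A12, an aspartate-glutamate carrier of the same shuttle, read 7.03, 7.33 and 6.76 on ND, 7.05, 7.05 and 6.95 on ND+EV, 7.55 and 7.64 on HFD, and 7.22, 7.50 and 7.69 on HFD+EV. Its HFD arrays did not overlap the ND arrays and its HFD+EV arrays did not overlap the ND+EV arrays. The differences were 0.56 ± 0.18 and 0.45 ± 0.16, with limma adjusted p-values of 0.109 and 0.613, and the first was 0.26 without both ND replicates 1 and 3. Its paralog SLC25A13 differed by 0.28 ± 0.20 between HFD and ND and overlapped. That value was 0.08 without ND replicate 3, 0.15 without HFD replicate 1 and 0.46 without ND replicate 1.

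SLC25A3, which carries phosphate into mitochondria for ATP synthesis, read 7.97, 9.06 and 8.49 on ND and 9.61 and 9.83 on HFD. On the vesicle arrays it read 8.99, 9.24 and 8.88 (ND+EV) and 9.06, 9.63 and 9.47 (HFD+EV). The HFD arrays were the highest beside HFD+EV replicate 2, and ND replicate 1 was the lowest of the 11. The HFD minus ND difference of 1.21 ± 0.28 did not pass (limma, adjusted p = 0.0632) and was 0.66 without both ND replicates 1 and 3. SLC25A4, the ADP/ATP exchanger of heart and skeletal muscle, read 10.10, 11.32 and 10.59 on ND, 11.45, 11.94 and 11.28 on ND+EV, 11.76 and 11.81 on HFD, and 11.37, 12.14 and 11.75 on HFD+EV. ND replicates 1 and 3 were the only arrays below 11 on the log2 scale. The HFD minus ND difference was 1.12 ± 0.33 (limma, adjusted p = 0.0914) and was 0.46 without those arrays.

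**Figure D2:**
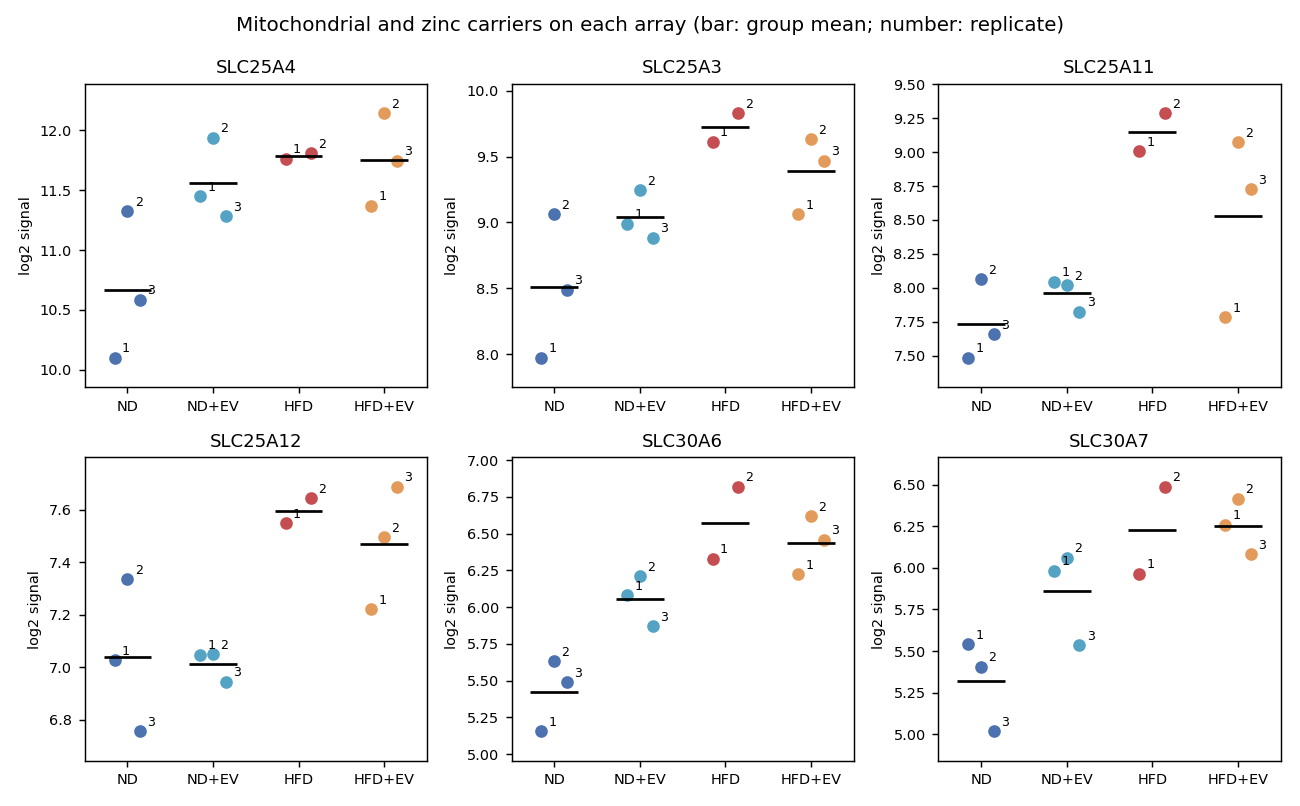
Log2 signal (vertical axes) on each array by group (horizontal axes) for 4 mitochondrial and 2 zinc carriers, with replicate numbers beside the points and group means as bars. The HFD points lie above all ND points in each panel, and ND replicate 1 is the lowest ND array for SLC25A4, SLC25A3, SLC25A11 and SLC30A6.

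The other mitochondrial carriers with an unadjusted p under 0.05 in this comparison were SLC25A27 (UCP4), SLC25A51 and SLC25A43. SLC25A27 read 5.08, 5.48 and 4.30 on ND and between 5.43 and 6.14 on the other 8 arrays, so only ND replicate 2 reached the range of the other groups. Its HFD minus ND difference of 0.98 was 0.46 without the other ND arrays. SLC25A51, which brings NAD+ into mitochondria, differed by 0.59 ± 0.23, by 0.35 without HFD replicate 2 and by 0.31 without both ND replicates 1 and 3. SLC25A43 read 4.07, 3.72 and 3.73 on ND and 4.34 and 4.73 on HFD. At the other end, SLC25A29, which carries basic amino acids, had the lowest difference of the family, -0.52 ± 0.25, with HFD arrays below the ND arrays, and -0.30 without HFD replicate 2. The citrate carrier SLC25A1 differed by -0.10 ± 0.18, and the difference was 0.04 without ND replicate 1 or HFD replicate 1 and 0.06 without both ND replicates 1 and 3. SLC25A29 is named for its place at the end of the family's range, after its values were seen.

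The list of exchange partners of these carriers, such as the outer membrane channels and ATP synthase, had 13 genes tested. Of these, 11 were higher and 2 lower in HFD than in ND, with a median of 0.53, and 1 rose past the threshold. The list includes UCP2, UCP3, MTCH1 and MTCH2, which belong to the SLC25 family themselves but carry no SLC symbol here. The 2 lower genes were UCP2 and UCP3. Over all genes 54.5% were higher, and 63 of 9738 (0.647%) passed. The median of the partners was 0.35 without both ND replicates 1 and 3. The partner that passed was ATP5A1, the alpha subunit of ATP synthase, at 9.95, 10.17 and 9.93 on ND and 11.45 and 11.22 on HFD, a difference of 1.32 ± 0.23 (limma, adjusted p = 0.0471), and 1.16 without those arrays. VDAC2, an outer membrane channel, differed by 1.0 ± 0.21 without passing (limma, adjusted p = 0.06), and by 0.56 without those arrays. Of 20 respiratory chain subunits all 20 were higher, with a median of 0.96, and 1 rose past the threshold, NDUFS3 of complex I, by 1.24 ± 0.23 (limma, adjusted p = 0.0471). All 20 were also higher without those arrays, with a median of 0.50, and NDUFS3 was then at 0.91. The calls of ATP5A1 and NDUFS3 each held in 4 of 21 alternatives. The transaminases of the malate-aspartate shuttle, cytosolic GOT1 and mitochondrial GOT2, differed by 1.16 ± 0.34 and 1.20 ± 0.34 and did not pass (limma, adjusted p = 0.0868 and 0.0807). Without those arrays they were at 0.89 and 1.10.

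Array by array, the mean deviation of the 28 mitochondrial carriers from each gene's mean over the 11 arrays was -0.12, 0.00 and -0.22 on ND, -0.03, 0.00 and -0.11 on ND+EV, 0.14 and 0.14 on HFD, and 0.01, 0.11 and 0.07 on HFD+EV. That of the 20 respiratory chain subunits was -1.12, -0.15 and -0.56 on ND, 0.04, 0.31 and 0.06 on ND+EV, 0.45 and 0.34 on HFD, and -0.27, 0.52 and 0.38 on HFD+EV. ND replicates 1 and 3 and HFD+EV replicate 1 were the 3 lowest arrays for the respiratory chain. Markers of other cell types moved in the same comparison: all 9 fibroblast markers tested of 10 were higher in HFD than in ND, with a median of 0.60 and none past the threshold. Their mean log2 signal ran from 7.09 to 8.07 on ND, 7.89 to 7.98 on ND+EV, 8.08 to 8.67 on HFD and 7.75 to 8.47 on HFD+EV. The fibroblast median was 0.52 without both ND replicates 1 and 3. Of 7 atrial muscle markers 6 were higher, with a median of 0.40 and differences up to 1.78, and their mean deviation was 0.22 and 0.89 on the HFD arrays against -0.49 to 0.24 on the other 9. All 6 endothelial markers tested of 10 were higher, with a median of 0.23 that became -0.02 without both ND replicates 1 and 3. Of 6 smooth muscle and pericyte markers tested of 8, 5 were higher, with a median of 0.26, or 0.12 without those arrays. Of 8 cardiomyocyte markers tested of 12, 5 were higher and 3 lower, with a median of 0.27, or 0.16 without them. No marker of these 4 lists passed the threshold. In the other lists 5 of 8 macrophage, 2 of 7 T and B cell and 2 of 5 adipocyte markers tested were higher. Their medians were 0.10, -0.06 and -0.05, or 0.11, 0.00 and 0.03 without both ND replicates 1 and 3. The 2 red cell and 2 nerve and glia markers tested were all lower. Those medians were -0.26 and -0.40, or -0.17 and -0.43 without those arrays. None of these markers passed. The part of cell makeup and of the arrays that stood apart in the carrier differences was not tested.

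**Figure D3:**
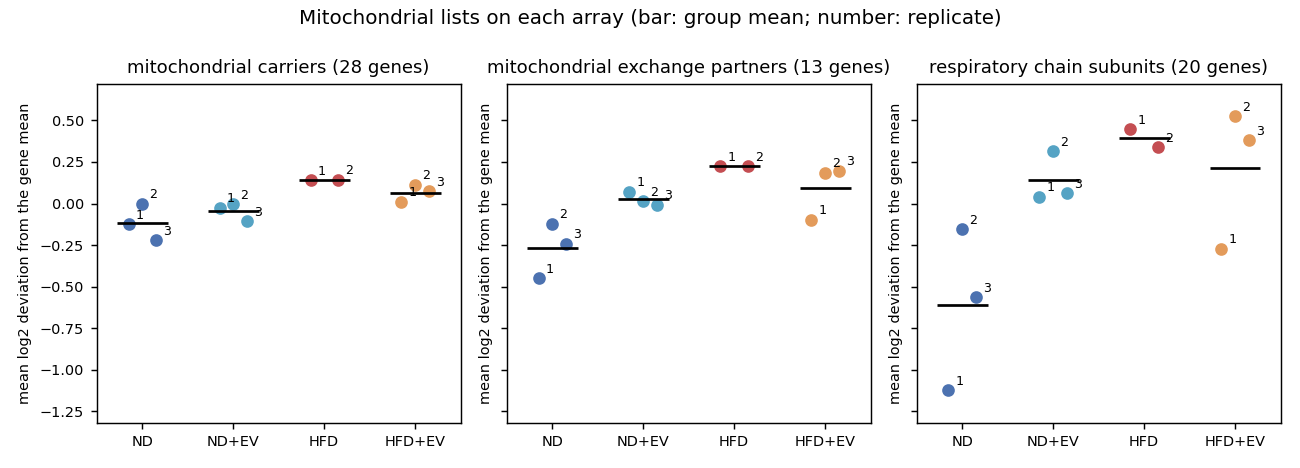
Mean log2 deviation from each gene's mean over the 11 arrays (vertical axis) on each array by group, with group means as bars. The panels show the mitochondrial carriers, the list of exchange partners, which also holds UCP2, UCP3, MTCH1 and MTCH2, and the respiratory chain. The respiratory chain spans -1.12 to 0.52 and the 28 carriers -0.22 to 0.14 on the same axis, with ND replicates 1 and 3 at the bottom of all 3 panels.

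No carrier of glucose, monocarboxylates or fatty acids at the plasma membrane had an unadjusted p under 0.05 in HFD against ND. Among the 5 glucose carriers, 2 were higher and 3 lower in HFD than in ND with a median of -0.10, and the sign of that median turned to 0.03 with quantile normalization or cyclic loess. SLC2A4, the insulin-regulated glucose carrier of muscle and fat (GLUT4), read 7.51, 7.53 and 7.98 on ND and 8.15 and 7.99 on HFD. On the vesicle arrays it read 7.50, 7.58 and 7.59 with ND and 7.68, 8.29 and 7.74 with HFD. The HFD arrays were above the matching ND arrays under both injections, with ND replicate 3 close below HFD replicate 2. The differences, 0.40 ± 0.20 and 0.35 ± 0.18, did not pass (limma, adjusted p = 0.26 and 0.71), and the second was 0.15 without HFD+EV replicate 2. The probe set of SLC2A2, the glucose carrier of liver and islet cells, read between 13.54 and 13.86 on all 11 arrays, near the top of the scale, where the highest value in the table was 14.02. Whether that probe set measures SLC2A2 in heart muscle was not tested. SLC2A8, SLC2A11 and SLC2A13 read between 3.30 and 4.58. SLC2A1, SLC2A3 and SLC2A12 were not analysed here. Of the 13 glucose uptake and trapping genes tested of 16, 9 were higher and 4 lower in HFD than in ND. Their differences ran from -0.22 to 0.83 (HK1), with a median of 0.21 and none past the threshold. That median was 0.09 without both ND replicates 1 and 3, with 8 higher, and HK1 was then at 0.39.

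Of the 8 monocarboxylate carriers, 4 were higher and 4 lower in HFD than in ND, with a median of 0.03 and none with an unadjusted p under 0.05. SLC16A7, a carrier with high affinity for pyruvate, read 8.54, 8.71 and 8.24 on ND, 8.82, 8.96 and 8.56 on ND+EV, 8.87 and 8.54 on HFD, and 8.74, 9.00 and 8.74 on HFD+EV. The HFD and ND arrays overlapped, and the difference of 0.21 ± 0.18 became -0.19 with quantile normalization and -0.22 with cyclic loess, ran from 0.04 to 0.37 with 1 array left out and was -0.0068 without both ND replicates 1 and 3. SLC16A1, the lactate carrier MCT1, read 5.48, 5.22 and 5.05 on ND, 5.28, 5.28 and 5.22 on ND+EV, 5.33 and 5.50 on HFD, and 4.96, 5.28 and 5.40 on HFD+EV, also overlapping. SLC16A10, which carries aromatic amino acids and thyroid hormones, varied most in the family, from 5.75 on HFD replicate 2 to 7.28 on HFD+EV replicate 1, without a group pattern. Among the genes that handle lactate and pyruvate inside the cell, LDHA, a subunit of lactate dehydrogenase, was 1.15 ± 0.31 higher in HFD than in ND, PDHB of pyruvate dehydrogenase 0.83 ± 0.26, and MPC2 of the mitochondrial pyruvate carrier 0.77 ± 0.28. All 4 genes tested of the 10 on that list were higher, with a median of 0.80, and none passed (limma, adjusted p = 0.0775 for LDHA). Without both ND replicates 1 and 3 that median was 0.50, with LDHA at 0.56, PDHB at 0.46 and MPC2 at 0.44, and MPC2 was at 0.51 without ND replicate 1 alone.

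By the probe set that stood for each gene, all 3 fatty acid carriers tested differed by less than their standard errors between HFD and ND. SLC27A1, a fatty acid transport protein of muscle, read 6.72, 6.63 and 6.52 on ND, 6.66, 6.57 and 6.51 on ND+EV, 6.62 and 6.62 on HFD, and 6.69, 6.70 and 6.59 on HFD+EV. The HFD minus ND difference was 0.00 ± 0.12, with a 95% confidence interval from -0.26 to 0.26. SLC27A4 ranged from 4.95 to 5.72 and differed by -0.04 ± 0.20, and its second probe set by -0.34 ± 0.18. SLC27A3 differed by -0.05 ± 0.17. With 1 array left out the first probe set of SLC27A4 ran from -0.22 to 0.13 and SLC27A3 from -0.21 to 0.12, and SLC27A3 was 0.19 without both ND replicates 1 and 3. Of the 11 other fatty acid uptake and activation genes tested of 15, 10 were higher in HFD, with a median of 0.33 and none past the threshold. That median was 0.14 without both ND replicates 1 and 3, with 8 higher. GOT2, given above with the malate-aspartate shuttle, was counted in this list too and had its highest difference, 1.20. CD36, the main fatty acid receptor of the heart muscle cell, read 7.13, 8.98 and 7.86 on ND and 9.07 and 8.79 on HFD. The groups overlapped through ND replicate 2, and the difference of 0.94 ± 0.43 (limma, adjusted p = 0.212) was 0.50 without ND replicate 1 and -0.06 without both ND replicates 1 and 3.

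**Figure D4:**
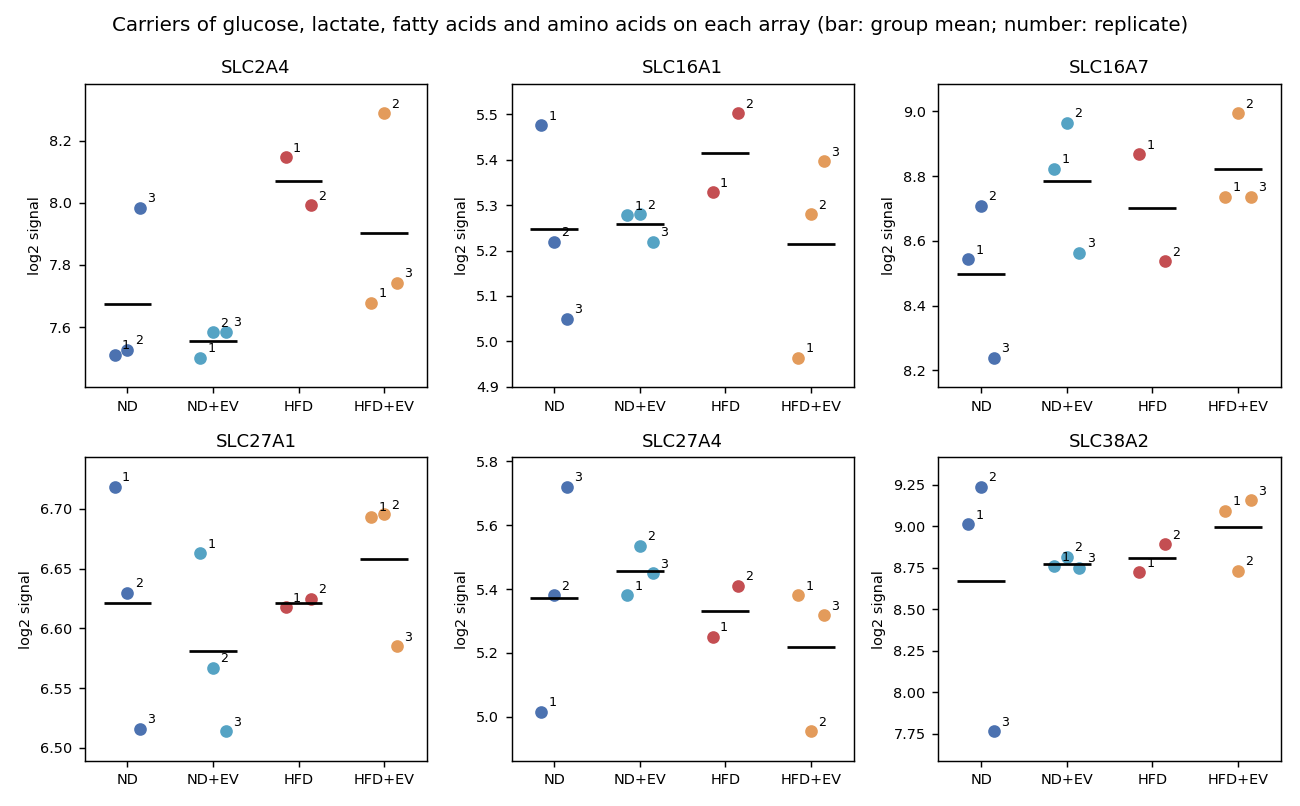
Log2 signal (vertical axes) on each array by group (horizontal axes) for carriers of glucose, lactate, pyruvate, fatty acids and amino acids, with replicate numbers beside the points and group means as bars. SLC27A1 stays between 6.51 and 6.72 on all 11 arrays, and 1 array, ND replicate 3 at 7.76, stands below the others for SLC38A2.

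Of the 19 amino acid carriers, 11 were higher and 8 lower in HFD than in ND, with a median of 0.09. SLC38A1, a glutamine carrier, read 6.77, 6.98 and 6.37 on ND, 6.75, 6.96 and 6.63 on ND+EV, 7.13 and 7.91 on HFD, and 6.55, 7.45 and 7.69 on HFD+EV. Its HFD arrays did not overlap ND, and the difference of 0.82 ± 0.33 did not pass (limma, adjusted p = 0.168) and was 0.43 without HFD replicate 2. SLC38A9, which senses arginine at the lysosome for mTORC1, differed by 0.42 ± 0.18 (limma, adjusted p = 0.18). SLC38A2, a carrier of small neutral amino acids, read 9.01, 9.24 and 7.76 on ND and 8.72 and 8.89 on HFD. Its difference of 0.14 ± 0.35 became -0.32 without ND replicate 3 and -0.43 without both ND replicates 1 and 3, while its second probe set differed by 0.48 ± 0.28. The glutamine carrier SLC1A5 and the basic amino acid carrier SLC7A1 differed by 0.15 ± 0.17 and -0.22 ± 0.16. SLC1A5 ran from -0.02 without ND replicate 1 to 0.28 without ND replicate 3, and SLC7A1 was -0.09 without ND replicate 3 and -0.12 without HFD replicate 1. They were 0.07 and -0.09 without both ND replicates 1 and 3. SLC38A1 and SLC38A9 are named because they had the lowest p-values of the family. Among 12 amino acid supply and sensing genes tested of 14, 10 were higher in HFD, with a median of 0.34, and 2 rose past the threshold, where 54.5% of all genes were higher and 0.647% passed. The median was 0.27 without both ND replicates 1 and 3. The 2 were RRAGC, a Rag GTPase that recruits mTORC1 to the lysosome, by 0.73 ± 0.14, and CDO1, which breaks down cysteine, by 1.14 ± 0.22 (limma, adjusted p = 0.0471 and 0.0474), or 0.62 and 0.84 without those arrays. Their calls each held in 4 of 21 alternatives. GOT1, given above with the malate-aspartate shuttle, was counted in this list too and had its highest difference, 1.16.

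SLC30A6 (ZnT6), which works with a partner to bring zinc into the Golgi, was the solute carrier that rose. It read 5.15, 5.63 and 5.49 on ND, 6.08, 6.21 and 5.87 on ND+EV, 6.33 and 6.82 on HFD, and 6.23, 6.62 and 6.46 on HFD+EV. The ND arrays were the 3 lowest of all, and both HFD arrays were above all ND+EV arrays too. The HFD minus ND difference was 1.15 ± 0.20, 2.22-fold (limma, adjusted p = 0.0471). It ran from 0.90 without HFD replicate 2 to 1.39 without HFD replicate 1 and was 0.94 without both ND replicates 1 and 3. Over the 21 alternatives the adjusted p ran from 0.0213 to 0.3, and the call held in 4: without the dimmest 50% of probe sets, with a replicate block, without ND replicate 2 and without HFD+EV replicate 1. It was lost when any other single array was left out. SLC30A7 (ZnT7), another zinc carrier of the early secretory pathway, read 5.54, 5.40 and 5.02 on ND, 5.98, 6.06 and 5.53 on ND+EV, 5.96 and 6.49 on HFD, and 6.26, 6.42 and 6.08 on HFD+EV. Its HFD arrays did not overlap ND, with a difference of 0.91 ± 0.22 (limma, adjusted p = 0.0694), or 0.82 without both ND replicates 1 and 3. Of the 19 zinc, iron, copper, magnesium and manganese carriers, 11 were higher and 8 lower with a median of 0.01. SLC39A13 and SLC39A14, which move zinc into the cytosol, and SLC30A9 differed by 0.95 ± 0.29, 0.70 ± 0.24 and 0.44 ± 0.15 and did not pass. SLC39A14 was 0.32 without HFD replicate 2, and without both ND replicates 1 and 3 it was 0.43 and SLC30A9 0.28. SLC39A13, SLC39A14 and SLC30A9 are named for low p-values in this family, after their values were seen.

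Carriers of other substrates with low p-values in HFD against ND included SLC44A2, a choline carrier, at 6.42, 6.76 and 6.75 on ND and 7.26 and 7.39 on HFD. The arrays did not overlap, and the difference of 0.69 ± 0.16 did not pass (limma, adjusted p = 0.0629) and was 0.57 without both ND replicates 1 and 3. SLC35E1, of the nucleotide sugar carrier family, read 3.72, 3.81 and 4.18 on ND, 4.24, 4.20 and 3.97 on ND+EV, 4.80 and 4.53 on HFD, and 4.16, 4.19 and 4.25 on HFD+EV. The HFD arrays were the highest of the 11, and the difference was 0.76 ± 0.16 (limma, adjusted p = 0.06), or 0.85 without those ND arrays. SLC29A1, the ENT1 carrier that takes up adenosine, read 6.35, 6.98 and 7.14 on ND, 6.85, 6.99 and 7.08 on ND+EV, 7.60 and 7.92 on HFD, and 7.04, 7.61 and 7.71 on HFD+EV. Its difference of 0.94 ± 0.25 did not pass (limma, adjusted p = 0.0778) and was 0.79 without them. SLC29A1 was chosen after its values were seen, as were the genes lower in HFD. Those 5 were the sodium-proton exchanger SLC9A4 (-0.50 ± 0.14), SLC37A3 (-0.44 ± 0.15), the norepinephrine carrier SLC6A2 (-0.41 ± 0.13), SLC4A11 (-0.36 ± 0.14) and the urea carrier SLC14A1 (-0.33 ± 0.14). None of the 5 passed, and leaving out 1 HFD array moved SLC37A3 to -0.28, SLC4A11 to -0.23 and SLC14A1 to -0.15. SLC37A3 was -0.29 and SLC14A1 -0.17 without both ND replicates 1 and 3. SLC9A4 read 4.84, 4.86 and 4.95 on ND and 4.36 and 4.40 on HFD, with all 6 vesicle arrays between 4.49 and 5.0.

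The comparison of HFD+EV with ND+EV took its differences from other arrays than HFD against ND. The p-values of both came from 1 fit, in which all 11 arrays set the spread, so the choice of genes by p-value was not independent of the vesicle arrays. No probe set passed there, and at an unadjusted p under 0.05 there were 7 solute carrier probe sets higher (4.14%) and 0 lower, where the background was 4.14% and 3.23%. Of the 28 solute carrier genes higher in HFD than in ND at an unadjusted p under 0.05, 27 (96.4%) were also higher in HFD+EV than in ND+EV, and all 5 that were lower were lower. Over all genes chosen the same way these shares were 82.4% and 75.3%. The 28 genes had a median of 0.69 with vehicle and 0.28 with vesicles, and all genes chosen the same way had 0.65 and 0.18. Choosing genes by p-value on the vehicle arrays favours large differences there. These medians therefore cannot show whether vesicles changed the diet difference. With vesicles SLC30A6 differed by 0.38 ± 0.18, SLC30A7 by 0.39 ± 0.20, SLC25A11 by 0.57 ± 0.28, SLC25A3 by 0.35 ± 0.25 and SLC25A4 by 0.20 ± 0.30. For SLC30A6 and SLC30A7 the HFD+EV arrays did not overlap ND+EV, whereas SLC25A11, SLC25A3 and SLC25A4 overlapped, the first and second through HFD+EV replicate 1 alone. SLC25A11 was 0.94 without that array and 0.29 without HFD+EV replicate 2. Without the latter, SLC25A3 was 0.23 and SLC25A4 0.0003, while SLC25A4 was 0.39 without HFD+EV replicate 1. SLC30A7 was 0.23 without ND+EV replicate 3.

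**Figure D5:**
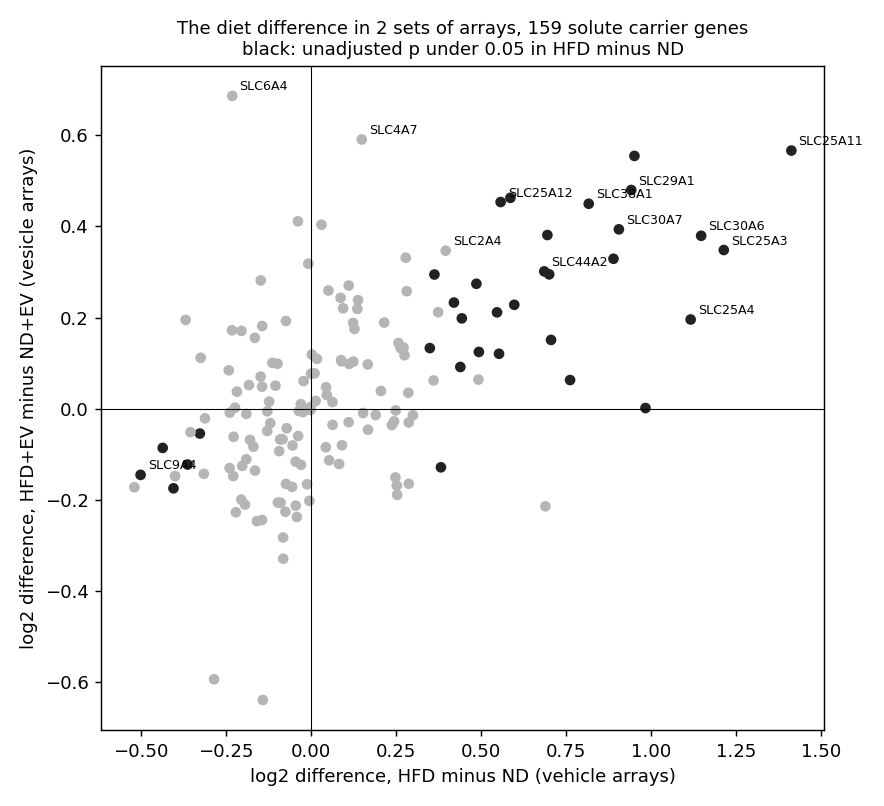
Each point is 1 of 159 solute carrier genes, placed by its log2 difference HFD minus ND on the vehicle arrays (horizontal axis) and HFD+EV minus ND+EV on the vesicle arrays (vertical axis). Of the 28 black points to the right, 27 lie above 0. The vertical values are smaller than the horizontal ones for SLC25A11, SLC25A3, SLC25A4 and SLC30A6. Black points were chosen by p-value in the horizontal comparison, which favours large horizontal values.

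The lowest p-values between HFD+EV and ND+EV belonged to SLC4A7, SLC6A4 and SLC25A12. SLC4A7, a sodium bicarbonate cotransporter, read 5.01, 4.89 and 4.90 on ND+EV and 5.94, 5.12 and 5.52 on HFD+EV, without overlap. Its difference of 0.59 ± 0.19 did not pass (limma, adjusted p = 0.593) and was 0.38 without HFD+EV replicate 1. SLC6A4, the serotonin carrier, read 5.15, 5.73 and 5.27 on ND, 4.70, 4.62 and 5.20 on ND+EV, 5.37 and 4.93 on HFD, and 5.15, 5.79 and 5.64 on HFD+EV. It was lowest on ND+EV replicates 1 and 2, and the difference was 0.69 ± 0.23 (limma, adjusted p = 0.596). SLC1A3, a glutamate carrier of the plasma membrane, SLC25A51 and the pyrimidine nucleotide carrier SLC25A36 differed by 0.41 ± 0.17, 0.46 ± 0.21 and 0.33 ± 0.15.

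Vesicle injection under the normal diet left no probe set past the threshold in ND+EV against ND. At an unadjusted p under 0.05, 11 of 169 solute carrier probe sets (6.51%) and 1758 of all 20668 (8.51%) differed. This comparison shares the ND arrays with HFD against ND, so a low ND array moves both. SLC30A6 was 0.63 ± 0.18 higher with vesicles (limma, adjusted p = 0.539), and its ND+EV arrays did not overlap ND. SLC25A4 was 0.89 ± 0.30 higher and SLC25A27 0.90 ± 0.28, at 5.95, 5.96 and 5.65 against 5.08, 5.48 and 4.30. Without both ND replicates 1 and 3 these became 0.42, 0.24 and 0.37. SLC25A3 went from 0.53 to -0.02 in the same step. SLC30A7 was 0.54 higher and SLC25A34 0.46 (limma, adjusted p = 0.554 and 0.555), or 0.46 and 0.12 without those arrays. Respiratory chain subunits were higher in 20 of 20 with a median of 0.71, and none passed. Their median was 0.27 without those arrays, with 19 higher. The mitochondrial carriers as a family were at a median of 0.00, with 15 higher and 13 lower, and at -0.07 without those arrays. SLC35D1, which brings UDP-sugars into the endoplasmic reticulum, was the lowest in p, at 4.70, 4.92 and 4.55 on ND and 4.33, 4.32 and 4.07 on ND+EV. Those groups did not overlap, and the difference of -0.48 ± 0.14 did not pass (limma, adjusted p = 0.539).

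Under the high fat diet, HFD+EV against HFD again left no probe set past the threshold. At an unadjusted p under 0.05, 7 solute carrier probe sets (4.14%) and 1146 of all 20668 (5.54%) differed. Of the 159 genes 65 were higher and 94 lower, with a median of -0.05, where all genes had a median of -0.02. Both HFD arrays lay above all HFD+EV arrays for 22 genes, 13.8% against 12.3% of all genes. They lay below all HFD+EV arrays for 10 genes, 6.29% against 10.7% of all genes. This comparison shares the HFD arrays with HFD against ND. SLC5A10, a sodium-coupled sugar carrier, read 4.84 and 4.77 on HFD and 4.03, 4.35 and 4.39 on HFD+EV, without overlap, a difference of -0.55 ± 0.15 (limma, adjusted p = 0.645). SLC1A4, a carrier of neutral amino acids, read 4.12 and 4.59 on HFD and 3.70, 3.54 and 3.78 on HFD+EV. Its difference was -0.68 ± 0.20 (limma, adjusted p = 0.71), and -0.44 without HFD replicate 2. SLC35E1, SLC9A9, an endosomal sodium-proton exchanger, SLC35F5 and SLC25A43 differed by -0.46 ± 0.16, -0.46 ± 0.18, -0.41 ± 0.17 and -0.40 ± 0.17, and SLC25A43 by -0.21 without HFD replicate 2.

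The test of the difference itself, the vesicle effect under HFD less that under ND, also left no probe set past the threshold. At an unadjusted p under 0.05 there were 6 solute carrier probe sets (3.55%) and 1740 of all (8.42%). SLC30A6 had a difference of effects of -0.77 ± 0.27, being 0.63 higher with vesicles under ND and -0.14 under HFD (limma, adjusted p = 0.572). The -0.14 was 0.11 without HFD replicate 2. SLC35E1 had -0.70 ± 0.22, SLC25A27 -0.98 ± 0.42, SLC25A3 -0.87 ± 0.38, SLC5A10 -0.51 ± 0.20 and SLC6A4 0.92 ± 0.34. SLC25A27 was -0.46 and SLC25A3 -0.31 without both ND replicates 1 and 3. SLC6A4 was the 1 gene of the 6 with a higher vesicle effect under HFD. The median over the mitochondrial carriers was -0.11, with 11 higher and 17 lower, and that over all genes was -0.03. Without those ND arrays the median of the carriers was -0.03, with 14 higher and 14 lower.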

How the data were processed

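The authors deposited 1 table of log2 signals for 27558 probe sets on 11 arrays; the submitters' processing notes name the Transcriptome Analysis Console. The normalization it ran is not given in the sources used here, nor is a build of the genome. The deposited log2 values were used as they stood. Symbols came from the platform annotation: 13157 probe sets had 1 symbol, 523 several and 13878 none. Another 7 SLC probe sets listed several symbols and were not named, 1 of them with 2 different symbols. For counts of genes, the probe set with the highest mean stood for a gene. A linear model with 1 mean a group was fitted to all 11 arrays with limma 3.58.1 (R 4.3.3) and eBayes, two-sided, after the dimmest 25% of probe sets were left out. P-values were adjusted by Benjamini-Hochberg, with a threshold of 0.05. The code was tested on simulated data. Tables and plots used Python 3.11.15, pandas 2.3.3 and matplotlib 3.10.9. The number of arrays limits the precision.

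Genes were named from a fixed list of 29 (15 tested, 14 without a tested probe set of their own), with those past the threshold and the 6 with the lowest p in each comparison. Others are given for a low p in their family, as ends of a range or as chosen after their values were seen. The members, lists and rules were chosen with earlier results of these data known. Alternatives were no filter, a filter at 50%, quantile normalization, cyclic loess, a variance trend, array weights, a replicate block, only the groups compared, the mean over a gene's probe sets, and arrays left out.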

Additional observations from a re-analysis of the deposited data

How the results depend on the processing

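Counts of calls in HFD against ND depended on the processing. The 152 probe sets and 1 solute carrier became 0 and 0 with no filter on dim probe sets, quantile normalization, cyclic loess, a variance trend, array weights, or only the 2 groups compared. With single arrays left out they ran from 0 to 1356 probe sets and from 0 to 9 solute carriers, both highest without ND replicate 2. With a replicate block they were 938 and 12. The labels do not say whether the replicate numbers pair the samples. Same-numbered arrays of different groups had correlations of deviations from -0.10 to 0.33, and arrays with different numbers from -0.34 to 0.19. Deviations within a group sum to 0 over very few arrays, so these correlations cannot decide whether samples were paired. In HFD+EV against ND+EV array weights called 10 probe sets, and left-out arrays 0 to 2. Left-out arrays called 0 to 2 in ND+EV against ND, and 0 to 1 in HFD+EV against HFD and in the difference of effects. No solute carrier passed in those 4 comparisons under any of these alternatives.

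Family medians are differences of log2 signals. In HFD minus ND, the median of the mitochondrial carriers was 0.15 with array weights, 0.090 without both ND replicates 1 and 3 (also with HFD+EV replicate 1 left out) and 0.075 to 0.26 with 1 array left out. For the glucose carriers it was 0.14 at the 50% filter, 0.035 with quantile normalization, 0.026 with cyclic loess, -0.12 with array weights, -0.049 with a replicate block and -0.14 to 0.060 with 1 array left out. For the monocarboxylate carriers it was -0.019 to 0.12 with 1 array left out. For the amino acid carriers it was 0.13 at the 50% filter, 0.0073 with a replicate block and 0.031 to 0.13 with 1 array left out. For all solute carriers it was 0.14 at the 50% filter, 0.084 with quantile normalization, 0.082 with cyclic loess and -0.0056 to 0.038 with 1 array left out. In ND+EV minus ND, the median of the mitochondrial carriers was -0.070 without both ND replicates 1 and 3 (also with HFD+EV replicate 1 left out) and -0.013 to 0.059 with 1 array left out. For the amino acid carriers it was -0.023 with cyclic loess. For all solute carriers it was -0.031 to 0.013 with 1 array left out. In HFD+EV minus HFD, the median of the mitochondrial carriers was -0.092 to -0.017 with 1 array left out. For the amino acid carriers it was 0.013 at the 50% filter, -0.10 with quantile normalization, -0.11 with cyclic loess, -0.016 with a replicate block, 0.042 with HFD+EV replicate 1 left out beside ND replicates 1 and 3 and -0.064 to 0.042 with 1 array left out. For all solute carriers it was -0.079 at the 50% filter and -0.053 to -0.0043 with 1 array left out. In HFD+EV minus ND+EV, the median of the mitochondrial carriers was 0.042 to 0.11 with 1 array left out. For the amino acid carriers it was 0.19 at the 50% filter, 0.051 with HFD+EV replicate 1 left out beside ND replicates 1 and 3 and 0.0054 to 0.10 with 1 array left out. For all solute carriers it was 0.12 at the 50% filter, 0.055 with quantile normalization, 0.0013 with HFD+EV replicate 1 left out beside ND replicates 1 and 3 and 0.0013 to 0.042 with 1 array left out. In the difference of the EV effects, the median of the mitochondrial carriers was -0.053 with array weights, -0.025 without both ND replicates 1 and 3 and -0.13 to -0.040 with 1 array left out. For the amino acid carriers it was -0.091 at the 50% filter, -0.18 with quantile normalization, -0.18 with cyclic loess, -0.036 with array weights, -0.051 with a replicate block, -0.031 without both ND replicates 1 and 3, -0.019 with HFD+EV replicate 1 left out beside ND replicates 1 and 3 and -0.19 to 0.022 with 1 array left out. For all solute carriers it was -0.10 at the 50% filter, -0.057 with quantile normalization, -0.066 with cyclic loess and -0.061 to -0.0057 with 1 array left out.

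The sign of these genes, none past the threshold, turned under an alternative. In HFD minus ND, SLC25A1, at -0.10, was 0.062 without both ND replicates 1 and 3 (also with HFD+EV replicate 1 left out) and -0.24 to 0.041 with 1 array left out. SLC2A8, at -0.10, was 0.035 with quantile normalization and 0.026 with cyclic loess. SLC16A7, at 0.21, was -0.19 with quantile normalization, -0.22 with cyclic loess, -0.0068 without both ND replicates 1 and 3 (also with HFD+EV replicate 1 left out) and 0.040 to 0.37 with 1 array left out. SLC27A1, at -0.0002, was -0.053 to 0.048 with 1 array left out. SLC27A4, at -0.042, was 0.032 with a replicate block and -0.22 to 0.13 with 1 array left out. SLC1A5, at 0.15, was -0.018 to 0.28 with 1 array left out. SLC38A2, at 0.14, was -0.25 with quantile normalization, -0.29 with cyclic loess, -0.057 with array weights, -0.43 without both ND replicates 1 and 3 (also with HFD+EV replicate 1 left out) and -0.32 to 0.42 with 1 array left out. SLC25A34, at 0.25, was -0.0043 with cyclic loess, -0.093 without both ND replicates 1 and 3 (also with HFD+EV replicate 1 left out) and 0.16 to 0.42 with 1 array left out. CD36, at 0.94, was -0.058 without both ND replicates 1 and 3 (also with HFD+EV replicate 1 left out) and 0.50 to 1.43 with 1 array left out. SLC27A3, at -0.045, was 0.045 with quantile normalization, 0.053 with cyclic loess, 0.015 with array weights, 0.19 without both ND replicates 1 and 3 (also with HFD+EV replicate 1 left out) and -0.21 to 0.12 with 1 array left out. In ND+EV minus ND, SLC25A3, at 0.53, was -0.024 without both ND replicates 1 and 3 (also with HFD+EV replicate 1 left out) and 0.26 to 0.81 with 1 array left out. SLC25A11, at 0.23, was -0.10 without both ND replicates 1 and 3 (also with HFD+EV replicate 1 left out) and 0.10 to 0.39 with 1 array left out. In HFD+EV minus HFD, SLC30A6, at -0.14, was -0.39 to 0.11 with 1 array left out. SLC25A4, at -0.033, was 0.028 with quantile normalization, 0.066 with cyclic loess, 0.10 with array weights, 0.028 with a replicate block, 0.16 with HFD+EV replicate 1 left out beside ND replicates 1 and 3 and -0.23 to 0.16 with 1 array left out. SLC22A3, at -0.37, was 0.058 with HFD+EV replicate 1 left out beside ND replicates 1 and 3 and -0.61 to 0.058 with 1 array left out. The cause of these changes was not tested. The number of arrays limits every comparison, and the HFD group has 2.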

Other observations

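The median standard deviation over the 11 arrays was 0.21 for the solute carrier probe sets tested and 0.23 for all probe sets tested. SLC22A3, an organic cation carrier that takes up monoamines, read 5.18 on HFD+EV replicate 1 and between 6.33 and 7.14 on the other 10 arrays. Of the 169 solute carrier probe sets tested, 42 (24.9%) had the same deposited value on 3 or more arrays. The share was 23.4% over all probe sets tested. How the equal values arose, and what they did to small differences and their p-values, was not tested. SLC4A7 read 5.17 on all 3 ND arrays.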
